A study of Mus musculus with 6 samples.

Results

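The 9 genes described here, Ezh1, Ezh2, Eed, Suz12, Jarid2, Bmi1, Cbx2, Cbx7 and Cbx8, encode subunits of the Polycomb repressive complexes, and they were taken by their symbol from the 35976 genes of each deposited table. All 9 passed the filter on low counts, which left 17348 genes for the test. Their RNA was measured in cultured satellite cells (SCs), the stem cells of skeletal muscle, in 3 NF-YAcKO and 3 NF-YAfl/fl libraries. NF-YAcKO mice carry floxed alleles of NF-YA and the tamoxifen-inducible Cre recombinase under Pax7 (Pax7-CreERT2), so that the deletion is made only in cells that express Pax7 at the time of treatment. NF-YAfl/fl mice carry the floxed alleles without Cre, and both genotypes received tamoxifen, at an age of 5 to 7 weeks in the labels and of 6 to 8 weeks in the study's methods. The methods give 5 daily injections of 0.1 mg per g of body weight, muscles taken 7 days after the last, SCs enriched by depleting cells that carry CD31, CD45, CD11b or Sca1, and 4 days in growth medium. The labels do not say whether each library came from a separate mouse, so that the p-values measure the spread between these libraries.

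Polycomb repressive complex 2 (PRC2) methylates lysine 27 of histone H3 through either of the paralogs EZH1 and EZH2, which need the subunits EED and SUZ12 for activity, while JARID2 is an accessory subunit that helps to bring the complex to chromatin. The canonical form of Polycomb repressive complex 1 (PRC1) contains a PCGF protein such as BMI1 and a CBX protein, which binds the methylated lysine, around a RING protein that ubiquitinates histone H2A. EZH2 is known as the paralog of dividing cells and EZH1 as that of resting and differentiated cells. In muscle, EZH2 is known to decline as myoblasts differentiate and to hold muscle genes silent before that. NF-YA is the subunit that lets the trimer NF-Y read the pentamer CCAAT, a frequent element of proximal promoters.

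Since the deleted factor reads CCAAT, the promoters of the members were searched for CCAAT and for its reverse complement ATTGG. The RefSeq windows of the mouse build GRCm38.p6 ran from 250 bases before to 50 bases after a start site of each gene. A window was found for 8 of the 9 members, and for Jarid2 there were 2, which gave 9 windows. For Ezh2, for Cbx7 and for 1 of the 2 Jarid2 windows, the start site lay inside the gene coordinates given below and not at their 5′ end. The 150 bases before the start are printed 5′ to 3′ on the strand of the gene for Ezh2 and Suz12, which hold the motif close to the start, and for Ezh1 and Bmi1, which have none in their windows; capitals mark CCAAT or ATTGG.
Ezh2, chr6:47595031-47595180, minus strand: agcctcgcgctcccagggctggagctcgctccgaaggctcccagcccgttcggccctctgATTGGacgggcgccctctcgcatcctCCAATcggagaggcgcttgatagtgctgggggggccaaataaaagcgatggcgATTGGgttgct
Suz12, chr11:79992956-79993105, plus strand: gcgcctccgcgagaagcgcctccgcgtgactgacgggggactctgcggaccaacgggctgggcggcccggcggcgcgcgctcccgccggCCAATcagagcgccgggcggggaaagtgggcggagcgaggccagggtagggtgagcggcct
Ezh1, chr11:101226464-101226613, minus strand: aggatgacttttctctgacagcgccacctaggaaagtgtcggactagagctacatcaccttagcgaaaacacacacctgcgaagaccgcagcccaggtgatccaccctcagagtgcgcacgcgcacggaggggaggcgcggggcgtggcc
Bmi1, chr2:18676868-18677017, plus strand: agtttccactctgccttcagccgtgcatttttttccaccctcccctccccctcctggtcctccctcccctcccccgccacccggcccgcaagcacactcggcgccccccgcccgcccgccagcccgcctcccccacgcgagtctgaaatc

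Ezh2 had 3 matches, whose first bases lay 90, 64 and 11 bases before the start site of its window, inside the gene coordinates given below. Suz12 had 1 match, 61 bases before the start. Cbx8 had 2 matches, 220 and 156 bases before the start. Cbx7 had 1, 190 bases before the start site of its window, which also lay inside the gene coordinates. Eed had a match 25 bases after the start, and the Jarid2 windows had 1 each, 179 bases before and 16 bases after their starts. Over all 32851 promoter windows of the same length, 37.4% held at least 1 match, 11.7% at least 2 and 3.37% at least 3, so that 7 of the 9 windows of the members held the pentamer and only that of Ezh2 held 3. These matches are letters in a window, and binding at them was not analysed here.

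The libraries held between 26936230 and 41118984 expected counts, at which 3 counts correspond to 0.0730 to 0.111 CPM before normalization. Levels are given as CPM, the counts scaled by library size after TMM normalization. An Nfya entry for the deleted allele took 22.3 to 34.2% of the Nfya counts in NF-YAcKO and 0 in NF-YAfl/fl, and the other Nfya transcripts summed to 19.9 ± 1.88 CPM in NF-YAcKO and 28.7 ± 7.20 CPM in NF-YAfl/fl (SD, n = 3). The spread between replicates was wider among the NF-YAfl/fl libraries (biological coefficient of variation 0.310) than among the NF-YAcKO libraries (0.105). Xist, the RNA of the inactive X chromosome, was at 843 ± 8.35 CPM in NF-YAcKO and 0.389 ± 0.0846 CPM in NF-YAfl/fl, and the Y-linked Ddx3y at no more than 3 counts in any NF-YAcKO library and 84.9 ± 3.82 CPM in NF-YAfl/fl, whereas the methods name male mice. Sex-linked expression and genotype thus cannot be told apart in any comparison below. The summed level of 9 SC markers was 1712 to 1859 CPM in NF-YAcKO and 2386 to 4026 CPM in NF-YAfl/fl, and none of these markers was at 0. Of the 9, 3 rose (Pax7, Vcam1 and Sdc4), 3 fell (Des, Cdh15 and Itga7) and 3 did not pass at an FDR under 0.05 by edgeR, with a median log2 fold change of -0.08.

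Ezh2 RNA was 2.09-fold higher in NF-YAcKO than in NF-YAfl/fl SCs, Eed, Suz12 and Bmi1 rose by smaller factors, and no member fell. Ezh1, Jarid2, Cbx2, Cbx7 and Cbx8 did not pass the test. With edgeR's quasi-likelihood test and the study's thresholds (FDR under 0.01 and a log2 fold change beyond 1 in either direction), 1 of the 9 members, Ezh2, was called higher and 0 were called lower, beside 4.65% of all tested genes called higher and 7.67% called lower. At an FDR under 0.05 without a fold threshold, 4 members were higher and 0 lower, beside 19.7% and 18.9% of all tested genes. The counts were the same at an unadjusted p under 0.05, with 4 members higher and 0 lower by edgeR and by DESeq2. The share of all tested genes at that unadjusted p was not counted, so that these counts have no background beside them. The median log2 fold change of the members was 0.36, and that of all tested genes was -0.02. By library, 5 members had all NF-YAcKO values above all NF-YAfl/fl values, 0 had them all below and 4 overlapped, while 29.1% of all tested genes lay above and 26.2% below.

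**Figure D1:**
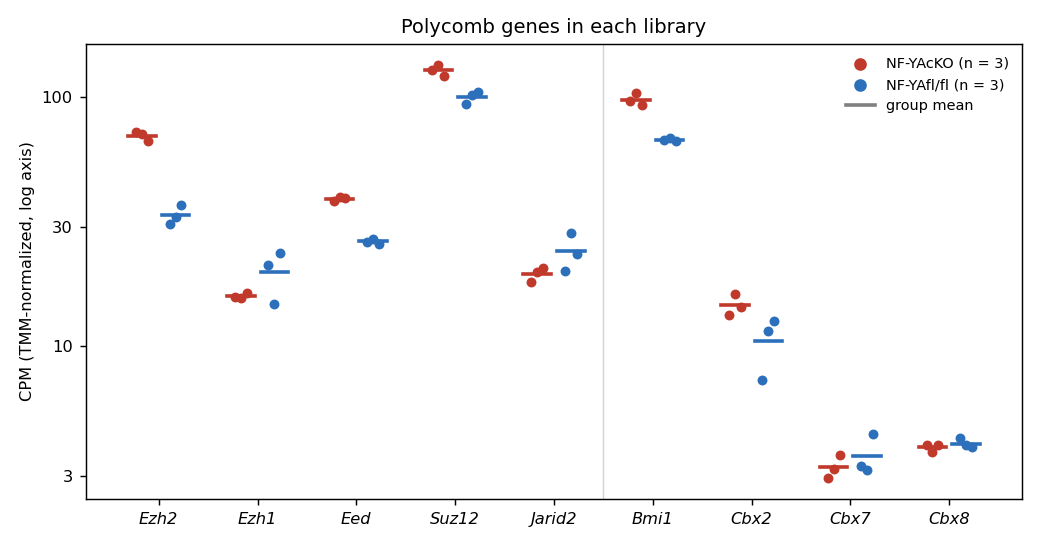
Level of each member in every library, in TMM-normalized CPM on a log axis; points are libraries (red NF-YAcKO, blue NF-YAfl/fl, n = 3 each), horizontal bars are group means and the vertical line parts the PRC2 from the PRC1 genes. The genotypes do not overlap for Ezh2, Eed, Suz12, Bmi1 and Cbx2, and they overlap for Ezh1, Jarid2, Cbx7 and Cbx8.

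Ezh2 encodes the main H3K27 methyltransferase of dividing cells and lies at 6:47530274-47595270 (GRCm38). It was at 72.1, 71.1 and 66.5 CPM in the NF-YAcKO libraries and at 30.8, 33.0 and 36.8 CPM in the NF-YAfl/fl libraries. Every NF-YAcKO library was above every NF-YAfl/fl library, by far more than the spread within either genotype. The means were 69.9 ± 2.96 and 33.5 ± 3.05 CPM (SD, n = 3), and edgeR gave a log2 fold change of 1.06, with a standard error of 0.10, a 95% interval of 0.82 to 1.3 and an FDR of 0.000662. Ezh2 was past an FDR of 0.05 under all 14 alternative settings, with log2 fold changes from 0.94 to 1.13. Its log2 fold change sat at the study's threshold of 1 and exceeded it under 11 of the 14 alternatives. It was 0.995 when NF-YAfl/fl replicate 1 was left out, at which the stricter call was lost. That call was also lost when limma was fitted to log2 TPM, a scale described below, with log2 fold changes of 0.94 and 0.98.

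Ezh1 encodes the paralog that is known to persist in cells that have stopped dividing and lies at 11:101191115-101226463. It was at 15.7, 15.5 and 16.3 CPM in NF-YAcKO and at 21.0, 14.8 and 23.6 CPM in NF-YAfl/fl. The NF-YAcKO libraries were close together, and NF-YAfl/fl replicate 2 lay below all of them while the other NF-YAfl/fl libraries lay above. The log2 fold change was -0.32 (standard error 0.18, 95% interval -0.75 to 0.11, FDR = 0.199 by edgeR), a difference within the spread between libraries. Without NF-YAfl/fl replicate 2 it was -0.51 with an FDR of 0.0136.

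The ratio of the paralogs was formed within each library from TPM, the level per transcript length scaled to the same sum in each library, which accounts for the length of the transcripts, so that levels of different genes can be set side by side. Ezh2 TPM divided by Ezh1 TPM was 7.54, 7.51 and 6.68 in NF-YAcKO and 2.40, 3.65 and 2.56 in NF-YAfl/fl. The lowest NF-YAcKO ratio was well above the highest NF-YAfl/fl ratio, and Ezh2 exceeded Ezh1 in every library of both genotypes. The means were 7.24 ± 0.486 and 2.87 ± 0.682 (SD, n = 3), and the log2 ratio was higher by 1.36, a factor of 2.57 between geometric means. The exact two-sided permutation test gave p = 0.1, the smallest value that 3 libraries against 3 allow, so that this design could not pass 0.05 for the ratio. With each library left out in turn, the log2 difference ranged from 1.24 to 1.55.

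**Figure D2:**
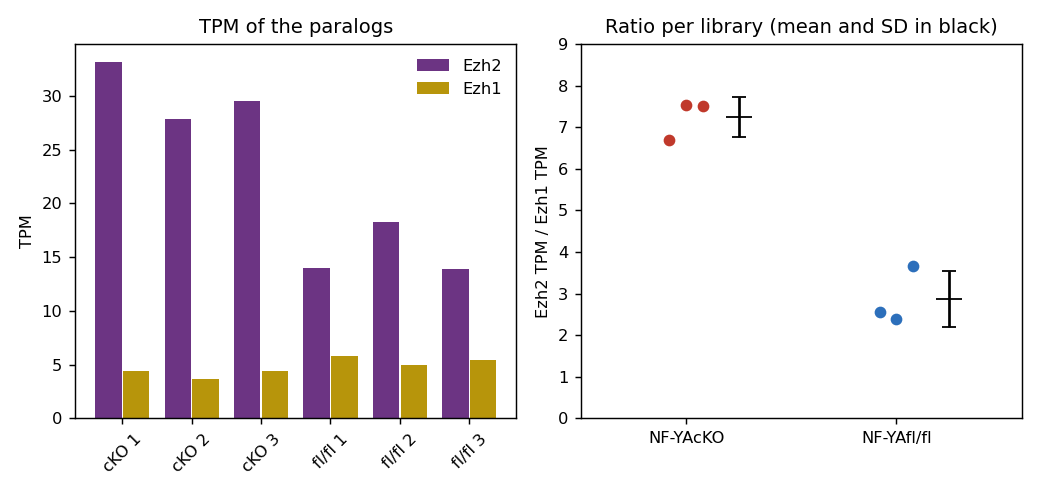
Left, TPM of Ezh2 and Ezh1 in each library, as bars from 0; right, Ezh2 TPM divided by Ezh1 TPM in each library, with the mean and SD of 3 libraries in black. The NF-YAcKO ratios lie between 6.68 and 7.54 and the NF-YAfl/fl ratios between 2.40 and 3.65.

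Ezh2 made up 87.8 ± 0.741% of the summed TPM of the paralogs in NF-YAcKO and 73.7 ± 4.25% in NF-YAfl/fl (SD, n = 3). The catalytic subunits were also set against the core subunit Suz12, and their summed TPM per Suz12 TPM was 1.08, 1.02 and 1.07 in NF-YAcKO and 0.794, 0.705 and 0.835 in NF-YAfl/fl. The genotypes did not overlap in this ratio (exact permutation p = 0.1, the smallest possible). Per Eed TPM the ratio was 1.67, 1.57 and 1.51 in NF-YAcKO and 1.3, 1.21 and 1.54 in NF-YAfl/fl. Here the highest NF-YAfl/fl library lay above the lowest NF-YAcKO library (exact permutation p = 0.2). These are ratios of RNA, and protein was not measured in these files.

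The core subunits Eed and Suz12 rose less than Ezh2. Eed, which encodes the subunit that binds methylated histone H3 and stimulates the enzyme, lies at 7:89954654-89980976. It was at 38.1, 39.8 and 39.3 CPM in NF-YAcKO and at 26.1, 26.9 and 25.8 CPM in NF-YAfl/fl. Both genotypes were tight and far apart relative to their spread, and the log2 fold change was 0.57 (standard error 0.09, FDR = 0.0031 by edgeR). Suz12, which encodes the scaffold of the complex, lies at 11:79993106-80034123. It was at 128, 135 and 121 CPM in NF-YAcKO and at 93.6, 102 and 104 CPM in NF-YAfl/fl. The genotypes did not overlap, and the log2 fold change was 0.36 (standard error 0.09, FDR = 0.0194 by edgeR). This call was the least stable of the 4. It held under 7 of the 14 alternatives, and the FDR was 0.0965, 0.119 and 0.0591 without NF-YAcKO replicate 1, 2 and 3 and 0.0630 without NF-YAfl/fl replicate 1. The highest FDRs of Suz12 were 0.2505 and 0.2516, when limma was fitted to log2 TPM, with log2 fold changes of 0.27 and 0.28. Eed held under 12 of 14, with an FDR of 0.0918 and 0.0947 when limma was fitted to log2 TPM.

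Jarid2, at 13:44730774-44921643, was at 18.0, 19.8 and 20.5 CPM in NF-YAcKO and at 20.0, 28.4 and 23.4 CPM in NF-YAfl/fl. The libraries overlapped through NF-YAfl/fl replicate 1, and the log2 fold change was -0.30 (standard error 0.15, 95% interval -0.66 to 0.06, FDR = 0.156 by edgeR). The accessory subunit Jarid2 and the enzyme Ezh1 were thus the PRC2 members whose log2 fold change was below 0, and neither passed the test.

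Bmi1 was the only PRC1 member past the test. It encodes the PCGF subunit BMI1, known for repressing the Ink4a-Arf locus and for the self-renewal of stem cells, and lies at 2:18677018-18686629. It was at 96.3, 104 and 92.6 CPM in NF-YAcKO and at 67.3, 68.2 and 66.3 CPM in NF-YAfl/fl. The lowest NF-YAcKO library was above the highest NF-YAfl/fl library, and the log2 fold change was 0.54 (standard error 0.08, FDR = 0.00357 by edgeR). The call held under 12 of the 14 alternatives, with an FDR of 0.0919 and 0.0932 in limma on log2 TPM.

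The 3 CBX members, which encode readers of the methylated lysine, did not pass the test. Cbx2, at 11:119023019-119031275, was at 13.3, 16.1 and 14.3 CPM in NF-YAcKO and at 7.26, 11.4 and 12.6 CPM in NF-YAfl/fl. Its libraries did not overlap, but NF-YAfl/fl replicate 3 lay close to the lowest NF-YAcKO library and the log2 fold change of 0.49 had a standard error of 0.22 (FDR = 0.122 by edgeR). Without NF-YAfl/fl replicate 3 it was 0.63 with an FDR of 0.0406, and without NF-YAfl/fl replicate 1 it was 0.28. Cbx7, at 15:79915804-79971143, was at 2.93, 3.21 and 3.64 CPM in NF-YAcKO and at 3.29, 3.15 and 4.41 CPM in NF-YAfl/fl. Cbx8, at 11:119036303-119040913, was at 3.99, 3.74 and 4.0 CPM in NF-YAcKO and at 4.24, 3.98 and 3.90 CPM in NF-YAfl/fl. Both overlapped between genotypes and were the lowest of the members, with log2 fold changes of -0.15 (95% interval -0.65 to 0.36) for Cbx7 and -0.05 (95% interval -0.43 to 0.33) for Cbx8. Cbx7 overlaps Apobec3 on the opposite strand, which had a log2 fold change of 1.28, and the strand setting of the authors' counting is not given in the sources used here.

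The order of the members was read from TPM. In NF-YAfl/fl it was Suz12 (mean 27.0 TPM), Bmi1 (23.1), Eed (15.7), Ezh2 (15.4), Ezh1 (5.42), Jarid2 (4.87), Cbx2 (3.20), Cbx8 (2.86) and Cbx7 (1.33). In NF-YAcKO it was Suz12 (mean 32.4 TPM), Bmi1 (31.3), Ezh2 (30.2), Eed (21.7), Ezh1 (4.18), Cbx2 (4.16), Jarid2 (3.60), Cbx8 (2.81) and Cbx7 (1.16). In both genotypes Suz12, Bmi1, Eed and Ezh2 stood above the other 5 members in every library. Among neighbours in NF-YAfl/fl, only Ezh2 and Ezh1, and Cbx8 and Cbx7, had ranges that did not overlap. In NF-YAcKO the ranges of Suz12, Bmi1 and Ezh2 overlapped with their neighbours, as did those of Ezh1 and Cbx2, while Ezh2 lay above Eed in every library. The place of Ezh2 relative to Eed thus differed, with 27.9 to 33.2 TPM for Ezh2 beside 20.1 to 22.6 for Eed in NF-YAcKO and overlapping ranges in NF-YAfl/fl.

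Between libraries the CPM scale was taken as the main one, because the TPM that corresponded to 1 CPM in a typical gene differed 1.46-fold, from 0.348 in NF-YAfl/fl replicate 3 to 0.508 in NF-YAfl/fl replicate 2. On the TPM scale, 3 members had NF-YAcKO values all above (Ezh2, Eed and Bmi1), 2 all below (Ezh1 and Jarid2) and 4 overlapped, beside 18.8% of all tested genes above and 25.2% below. Non-overlap of Suz12 and Cbx2 was therefore seen on the CPM scale only, and that of Ezh1 and Jarid2 on the TPM scale only.

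Shares within a family do not depend on this scaling. Bmi1 took 35.2, 36.5 and 34.2% of the summed TPM of the PCGF genes in NF-YAcKO and 27.2, 28.7 and 25.5% in NF-YAfl/fl, without overlap. Pcgf3, a PCGF gene of noncanonical PRC1, had the opposite pattern, with 32.3 ± 1.14% in NF-YAcKO and 43.0 ± 1.03% in NF-YAfl/fl (SD, n = 3). Bmi1 was thus the larger of these shares in every NF-YAcKO library and Pcgf3 the larger in every NF-YAfl/fl library. A higher share in every NF-YAcKO library was not particular to Bmi1. It was also seen for Pcgf6 (11.6 ± 0.848% and 8.33 ± 0.680%) and Pcgf1 (5.56 ± 0.407% and 4.78 ± 0.374%), while Pcgf2 and Pcgf5 overlapped. Cbx2 took 18.4, 22.6 and 20.3% of the summed TPM of the CBX genes in NF-YAcKO and 10.6, 17.2 and 17.6% in NF-YAfl/fl, again without overlap. Cbx7 stayed between 4.98 and 7.17% and Cbx8 between 13.0 and 14.3% over the 6 libraries, with overlap between genotypes. Shares were not tested, since 3 libraries against 3 cannot pass 0.05.

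**Figure D3:**
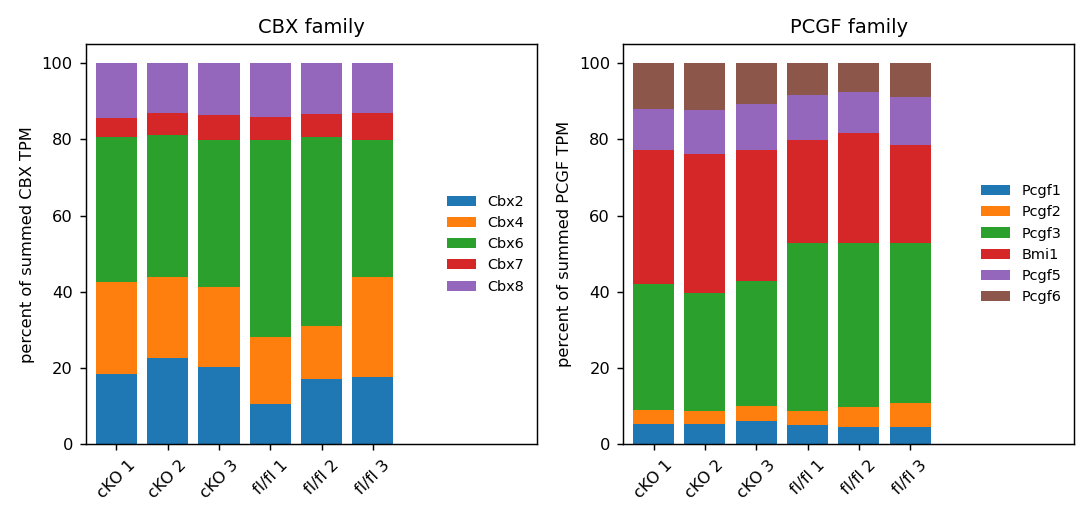
Share of each gene in the summed TPM of the CBX genes (left) and of the PCGF genes (right), as stacked bars for each library in percent. Bmi1 takes 34.2 to 36.5% in the NF-YAcKO libraries and 25.5 to 28.7% in the NF-YAfl/fl libraries.

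The deposited tables list 45 transcripts of the members, of which 22 had a mean of at least 0.5 TPM in either genotype and are described. Of these, 5 had all NF-YAcKO values above all NF-YAfl/fl values in TPM, 0 had them all below and 17 overlapped. Over all 32081 transcripts with such a mean, 15.2% lay above and 21.4% below. TPM was compared between libraries here, and the 1.46-fold difference in scale applies to these levels but not to shares of a gene. The 5 were the main form of Ezh2 and a minor form of it, both described forms of Eed and a predicted form of Bmi1. The main Ezh2 transcript, NM_007971.2 of 2652 nt, was at 23.6, 20.6 and 18.1 TPM in NF-YAcKO and at 10.4, 14.7 and 8.98 TPM in NF-YAfl/fl. Its share of Ezh2 TPM was 61.2 to 73.8% in NF-YAcKO and 64.4 to 80.7% in NF-YAfl/fl, so that the shares overlapped although the levels did not. Of the 22 shares, 1 was higher in every NF-YAcKO library, 2 were lower and 19 overlapped, and no such count was made over all transcripts. The higher one was the longer Suz12 form, NM_199196.2 of 4373 nt, with 89.5 to 94.5% in NF-YAcKO and 83.7 to 88.8% in NF-YAfl/fl. The lower ones were the other Suz12 form and a minor Ezh2 form, XM_006505528.1, with 0.10 to 1.01% in NF-YAcKO and 2.01 to 7.91% in NF-YAfl/fl. Suz12 has only 2 listed forms, so that their shares mirror each other and count as 1 observation. RSEM estimates how reads are split between such forms, and the smallest exact permutation p for a transcript was 0.1.

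The other subunits of the complexes did not move as a block. Of 7 other PRC2 subunits, 1 rose and 1 fell at an FDR under 0.05 by edgeR, with a median log2 fold change of 0.06. Rbbp7, an X-linked gene whose product binds histones, was at 349.5 ± 4.42 CPM in NF-YAcKO and 229 ± 14.9 CPM in NF-YAfl/fl (log2 fold change 0.61, FDR = 0.00282 by edgeR), which held under 12 of the 14 alternatives, with an FDR of 0.0720 and 0.0701 in limma on log2 TPM. Phf1, whose product is a PRC2 accessory reader, was at 8.41 ± 0.368 and 14.9 ± 5.01 CPM (log2 fold change -0.83, FDR = 0.0318 by edgeR), and its call was lost without any of NF-YAcKO replicates 1, 2 and 3 (FDR = 0.0872, 0.0924 and 0.0740), while its log2 fold change was -0.52 without NF-YAfl/fl replicate 3. Rbbp4, the paralog of Rbbp7, and Mtf2, an accessory subunit, did not pass, with log2 fold changes of 0.03 and 0.06. Without NF-YAfl/fl replicate 3, 4 of the 7 rose and 2 fell. More of all genes were also called without that library, 4456 higher and 4088 lower beside 3418 and 3285 in the main fit.

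Of 19 other PRC1 subunits, 2 rose and 2 fell at an FDR under 0.05, with a median log2 fold change of -0.15. Pcgf6, which encodes a PCGF subunit of noncanonical PRC1, was at 19.3 ± 1.84 CPM in NF-YAcKO and 12.4 ± 1.54 CPM in NF-YAfl/fl (log2 fold change 0.64, FDR = 0.0133 by edgeR). Yaf2, which encodes a subunit that replaces CBX proteins, had a log2 fold change of 0.40 (FDR = 0.0389 by edgeR). Phc3, which encodes a Polyhomeotic subunit of canonical PRC1, fell to 52.9 ± 2.28 CPM in NF-YAcKO beside 101 ± 6.43 CPM in NF-YAfl/fl (log2 fold change -0.93, FDR = 0.000709 by edgeR), which held under all 14 alternatives. Scmh1, a gene of the same branch, had a log2 fold change of -0.70 (FDR = 0.00918 by edgeR), which also held under all 14. The RING genes Rnf2 and Ring1 did not pass, with log2 fold changes of 0.08 and -0.25. Pcgf6 was lost without NF-YAcKO replicate 1 or 2 (FDR = 0.0633 and 0.0759), Yaf2 without any of NF-YAcKO replicates 1, 2 and 3 or NF-YAfl/fl replicate 2 (FDR = 0.192, 0.170, 0.0834 and 0.0566), and 6 rose and 4 fell without NF-YAfl/fl replicate 3. Without NF-YAfl/fl replicate 2, 1 rose and 5 fell. Over all genes, 4456 rose and 4088 fell without NF-YAfl/fl replicate 3, and 3564 rose and 3467 fell without NF-YAfl/fl replicate 2. In the main fit 3418 rose and 3285 fell. Over all 35 PRC1 and PRC2 genes, members included, 7 rose and 3 fell, with a median log2 fold change of 0.03. Of all tested genes, 19.7% rose and 18.9% fell at this threshold, so that the count higher was near the share of all genes.

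**Figure D4:**
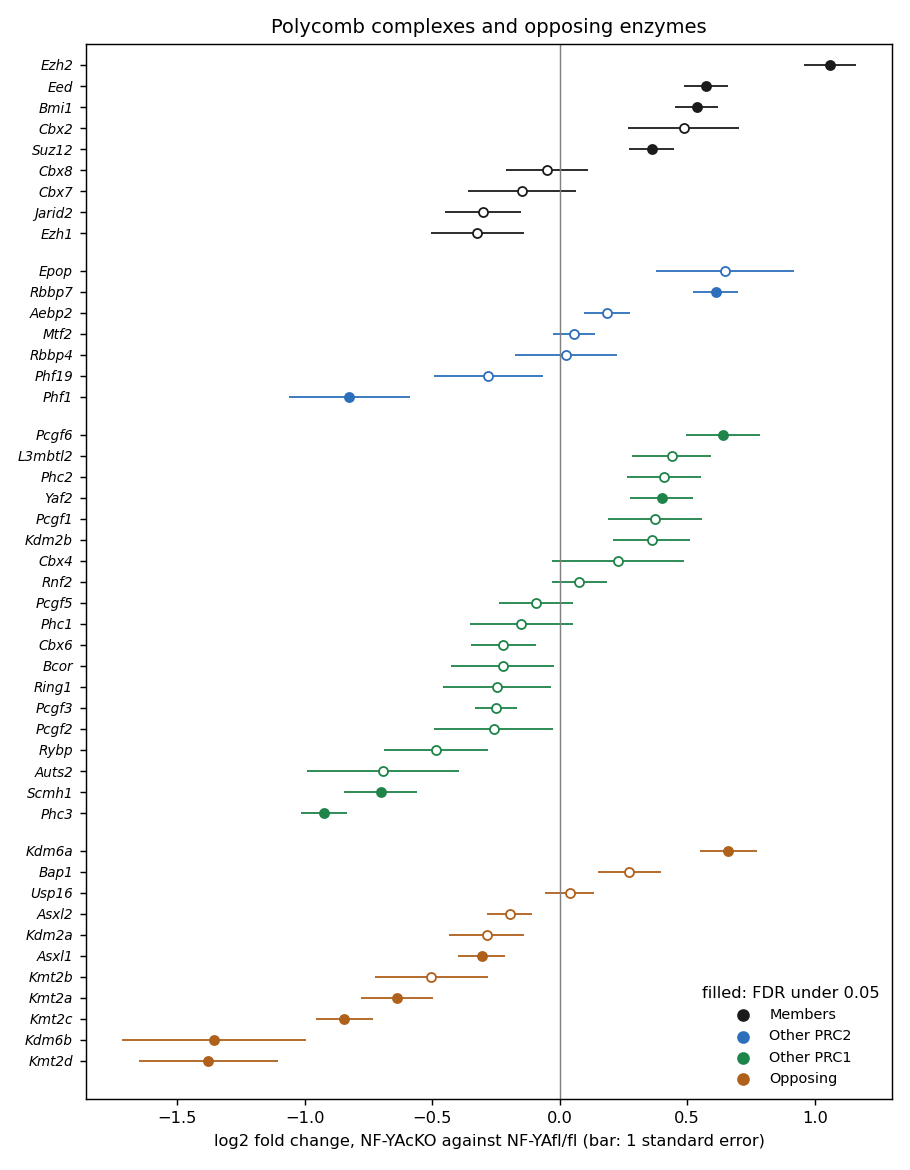
Log2 fold change of NF-YAcKO against NF-YAfl/fl for the members, the other PRC2 and PRC1 subunits and the opposing enzymes; bars are 1 standard error and filled points have an FDR under 0.05 by edgeR. Ezh2 at 1.06 is the highest of all genes shown, and Kmt2d at -1.38 is the lowest.

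Genes for enzymes and cofactors that oppose Polycomb or act on the same histone marks numbered 11. Of these, 1 rose and 5 fell at an FDR under 0.05 by edgeR, with a median log2 fold change of -0.31. Of all tested genes, 19.7% rose and 18.9% fell. Those of the 11 that fell include methyltransferases of lysine 4 of histone H3 from the Trithorax group. Kmt2d was at 161 ± 4.05 CPM in NF-YAcKO and 419.8 ± 177 CPM in NF-YAfl/fl (log2 fold change -1.38, FDR = 0.00825). Kmt2c had a log2 fold change of -0.84 (FDR = 0.00193) and Kmt2a of -0.64 (FDR = 0.0128). The demethylases of lysine 27, which remove the mark of EZH2, went in opposite directions. Kdm6b was at 23.4, 18.6 and 19.4 CPM in NF-YAcKO and at 37.3, 33.8 and 85.8 CPM in NF-YAfl/fl (log2 fold change -1.35, FDR = 0.0244). The X-linked Kdm6a was at 58.9, 62.5 and 62.3 CPM in NF-YAcKO and at 36.4, 35.5 and 44.3 CPM in NF-YAfl/fl (log2 fold change 0.66, FDR = 0.00478). Neither overlapped between genotypes, but the Kdm6b call was lost without any of NF-YAcKO replicates 1, 2 and 3 (FDR = 0.0530, 0.0830 and 0.0731), and with any of these left out 3 of the 11 genes fell. With NF-YAcKO replicate 1, 2 or 3 left out, 2146, 1981 and 2247 of all genes fell, beside 3285 in the main fit. Without NF-YAfl/fl replicate 3, the highest of its libraries, the Kdm6b log2 fold change was -0.80. Kmt2a, Kmt2c, Kmt2d and Kdm6a were past the threshold under all 14 alternatives.

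Genes known from other work as Polycomb targets moved in both directions. Of 11 such genes, 3 rose and 3 fell at an FDR under 0.05 by edgeR, with a median log2 fold change of 0.53. Of all tested genes, 19.7% rose and 18.9% fell. Myog, the gene of a myogenic regulatory factor, was at 20.3 ± 10.4 CPM in NF-YAcKO and 999.5 ± 434 CPM in NF-YAfl/fl (log2 fold change -5.62, FDR = 0.000683), and the muscle creatine kinase gene Ckm had a log2 fold change of -6.11 (FDR = 0.00147). The cell cycle inhibitor gene Cdkn1c was at 2.01 ± 0.458 CPM in NF-YAcKO and 24.3 ± 7.66 CPM in NF-YAfl/fl (log2 fold change -3.58, FDR = 0.000422). These were the 3 that fell, and for none of them did the genotypes overlap. Pax7, the SC transcription factor, was higher, at 171 ± 28.4 CPM beside 88.7 ± 15.8 CPM (log2 fold change 0.94, FDR = 0.00624). Wt1, a developmental transcription factor, had a log2 fold change of 1.89 (FDR = 0.00304). For Gata6, a zinc finger transcription factor gene, it was 1.22 (FDR = 0.0481), which was lost without any of NF-YAcKO replicates 1, 2 and 3 or NF-YAfl/fl replicates 1 and 2 (FDR = 0.170, 0.0638, 0.110, 0.0880 and 0.0553). Without NF-YAfl/fl replicate 3, 5 of the 11 rose and 4 fell. More of all genes were also called without that library, 4456 higher and 4088 lower beside 3418 and 3285 in the main fit. Histone marks and Polycomb binding were not measured in these files.

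The Hox genes, the classic Polycomb targets, numbered 39, of which 31 passed the filter on low counts. At an FDR under 0.05, 4 of the 31 were higher and 6 lower, with a median log2 fold change of -0.28. Of all tested genes, 19.7% were higher and 18.9% lower. Hoxa11 was at 14.6 ± 1.69 CPM in NF-YAcKO and 6.97 ± 1.07 CPM in NF-YAfl/fl (log2 fold change 1.06, FDR = 0.00389 by edgeR), and Hoxc6 at 9.56 ± 0.448 and 22.5 ± 6.55 CPM (log2 fold change -1.23, FDR = 0.00553 by edgeR). Hoxa11 held under all 14 alternatives, while Hoxc6 was lost in limma on log2 TPM, with log2 fold changes of -0.52 and -0.61 and an FDR of 0.0745 and 0.0671. Among Hox genes whose mean reached 1 CPM, the largest falls were those of Hoxc13 (log2 fold change -1.75, FDR = 0.0127 by edgeR) and Hoxd4 (log2 fold change -1.56, FDR = 0.00792 by edgeR), both past the threshold under all 14 alternatives, from low levels of 3.43 ± 1.61 and 1.51 ± 0.144 CPM in NF-YAfl/fl. Without NF-YAcKO replicate 1 or 2, 1 rose and 5 fell, and without NF-YAfl/fl replicate 1, 2 rose and 5 fell. Over all genes, these 3 settings called 1930, 1739 and 2504 higher, beside 3418 in the main fit. They called 2146, 1981 and 2592 lower, beside 3285.

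Ezh2 and the other called members moved beside wide differences in cell state and cell type markers. Of 15 proliferation genes, 12 rose and 0 fell at an FDR under 0.05 by edgeR, with a median log2 fold change of 1.28, and their summed level was 2774 to 2961 CPM in NF-YAcKO and 1003 to 1682 CPM in NF-YAfl/fl. Ezh2 per 100 CPM of these genes was 2.60, 2.40 and 2.34 in NF-YAcKO and 2.75, 1.96 and 3.67 in NF-YAfl/fl. The genotypes overlapped in this ratio, and the NF-YAcKO values lay within the NF-YAfl/fl range. The log2 difference was -0.15, and an exact permutation test on the ratio without logarithm gave p = 0.7. The log2 difference was 0.07, on the other side of 0, without NF-YAfl/fl replicate 3. All 14 muscle differentiation genes fell, with a median log2 fold change of -6.67 and a summed level of 686 to 1525 CPM in NF-YAcKO and 48394 to 58995 CPM in NF-YAfl/fl. In these bulk libraries, fewer cells that express a gene and less of its RNA per cell cannot be told apart.

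Macrophage and Schwann cell markers were also higher in NF-YAcKO. Of 9 macrophage markers 8 rose and 0 fell, and their sum was 143 to 280 CPM in NF-YAcKO and 5.84 to 15.7 CPM in NF-YAfl/fl, although cells with CD45 or CD11b were depleted. All 5 Schwann cell markers rose, with sums of 32.5 to 35.9 CPM and 8.03 to 11.7 CPM. Of 5 endothelial markers 1 rose and 0 fell, with sums of 12.0 to 16.2 and 3.73 to 7.52 CPM. Of 7 fibroblast markers 2 rose and 0 fell, with a median log2 fold change of -0.18 and overlapping sums of 2020 to 2423 and 1125 to 3135 CPM. None of these markers was at 0 in all libraries. The part of proliferation, differentiation and these other cells in the levels of the Polycomb genes was not tested.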

How the data were processed

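The authors aligned stranded paired-end reads of 75 nt to mouse transcripts (mm10) with bowtie2, quantified genes and transcripts with RSEM, and deposited expected counts, TPM and, for each transcript, its percent of the TPM of the gene. RSEM splits reads shared by paralogs or transcripts, so that these values are estimates. Rounded expected counts were used, a gene was tested if 2 or more of the 6 libraries exceeded 10 counts, and genotypes were compared with edgeR 4.0.16 (TMM, quasi-likelihood test, Benjamini-Hochberg over all 17348 genes) in R 4.3.3. Gene coordinates are those of the GRCm38 annotation. Ratios of TPM were compared as log2 with exact two-sided permutation tests. The CPM ratio of Ezh2 to the proliferation genes was compared in the same way but without logarithm. Alternatives were DESeq2 1.42.0, its size factors, filterByExpr, no filter, unrounded counts, limma 3.58.1 on log2(TPM + 1) and log2(TPM + 0.1), the replicate number as a block, and each library left out. The fit was tested on simulated counts. The members and the lists were chosen with earlier results of these data known, and the values of the other lists under the alternatives were added after seeing the data. From each list at most 4 genes a direction were open to naming, by size of change. These had an FDR under 0.05 and a mean of at least 1 CPM. Rbbp4, Mtf2, Rnf2, Ring1, Pcgf1, Pcgf2, Pcgf3 and Pcgf5 were named after their values were seen. Epop is listed as E130012A19Rik and Mymk as Tmem8c.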

Additional observations from a re-analysis of the deposited data

How the results depend on the processing

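With limma on log2(TPM + 1), 231 genes were higher and 704 lower at the study's thresholds and 1547 were higher at an FDR under 0.05, with 0 and 1 members higher. With log2(TPM + 0.1) the counts were 361 and 1623 higher, again with 0 and 1 members. DESeq2 called 986 genes higher and 1804 lower at the study's thresholds, beside 806 and 1331. With each library left out, these were 177 to 890 and 523 to 1684, and at an FDR under 0.05 they were 1739 to 4456 higher and 1981 to 4088 lower. The members called then numbered 0 to 1 higher at the study's thresholds, and 3 to 5 higher and 0 to 1 lower at an FDR under 0.05. The member lost at the study's thresholds was Ezh2 without NF-YAfl/fl replicate 1, and the member then lower was Ezh1 without NF-YAfl/fl replicate 2. The transcripts without overlap numbered 6 to 13, where fewer libraries make non-overlap easier to reach, and the log2 difference of the Ezh2 to Ezh1 ratio was 1.24 to 1.55. The log2 fold change of Cbx7 then ranged from -0.26 to 0.02 and the log2 difference of Ezh2 per 100 CPM of proliferation genes from -0.38 to 0.074, both on the other side of 0 without NF-YAfl/fl replicate 3. Libraries with the same replicate number did not deviate together (correlations 0.14, -0.06 and 0.05). With 3 libraries a genotype such correlations cannot exclude a pairing, and the labels do not state one. With the replicate number as a block in edgeR, the FDR was 0.0047 for Ezh2, 0.0183 for Eed, 0.0170 for Bmi1 and 0.0601 for Suz12. The cause of these changes was not tested.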

Other observations

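The tested genes whose pattern over the 6 libraries was most like that of Ezh2, by the root mean square difference of centred log2 CPM among 9456 genes whose mean reached 10 CPM, were Slc1a5 (0.03), Nolc1 (0.06), Mtbp (0.06), Fkbp4 (0.06) and Hspd1 (0.06). For Ezh1 they were Rnf166 (0.03), 2210013O21Rik (0.04), Stx8 (0.04), Crkl (0.04) and Tmbim6 (0.05).

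Uty, the Y-linked paralog of Kdm6a, was looked at after its values were seen. It was at 45.8, 45.2 and 41.1 CPM in NF-YAfl/fl and at 1, 0 and 5 counts in NF-YAcKO. The sum of Kdm6a and Uty was 58.9, 62.5 and 62.4 CPM in NF-YAcKO and 82.2, 80.7 and 85.4 CPM in NF-YAfl/fl, so that the sum was lower in every NF-YAcKO library, whereas Kdm6a alone was higher.

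By cluster, a split chosen after the values were seen, 2 of 11 tested Hoxa and 2 of 7 Hoxb genes rose and none fell at an FDR under 0.05, while 2 of 8 Hoxc and 4 of 5 Hoxd genes fell and none rose. The median log2 fold changes were 0.43, 0.35, -0.47 and -1.19. Of all tested genes, 19.7% rose and 18.9% fell at this threshold. The clusters hold few genes, and their counts were not tested against these shares. Of the rising calls, Hoxa11 held under all 14 alternatives, Hoxb2 under 10, Hoxa4 under 7 and Hoxb7 under 2. Among the falling calls followed there, Hoxc13 and Hoxd4 held under all 14, Hoxc6 under 12 and Hoxd9 under 10.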
